A study of Mus musculus with 2 samples.

Results

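Cells that carried *Slc17a7* and *Nr4a2* were examined by MERFISH, which reads fluorescent barcodes to identify single RNA molecules in tissue, in 1 control and 1 *Dnmt1* KO mouse embryo head. A segmented cell was chosen when it held at least 20 panel transcripts, when *Slc17a7* and *Nr4a2* together had at least 2 counts and at least 3% of its transcripts, when *Gad1* and *Gad2* together had fewer than 2 counts, and when the *Slc17a7* and *Nr4a2* sum was no smaller than that of *Fezf2*, *Mc4r* and *Ntsr1* and larger than that of *Unc5d* and *Sstr2*. This gave 3649 member cells among 156481 cells over the transcript minimum, 1826 of 55231 in the control (3.31%, 95% interval 3.16 to 3.46) and 1823 of 101250 in the KO (1.80%, 1.72 to 1.88). The control was an E16.5 embryo of the *Sst-Cre/tdTomato* line, and the KO was an E16.5 embryo that carried *Sst-Cre*, *tdTomato* and *Dnmt1 loxP2*. Both genotypes thus share the Cre driver and the reporter, and Cre is made in cells that express *Sst*, so the member cells were not chosen as cells that had lost *Dnmt1*. Whole heads were frozen and cut coronally at 10 µm, and each group is 1 section from 1 instrument run.

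*Slc17a7* encodes VGLUT1, the transporter that loads glutamate into synaptic vesicles of most cortical excitatory neurons. *Nr4a2* encodes the orphan nuclear receptor NURR1, which in the rodent pallium is known from subplate and layer 6b neurons and from the claustrum and endopiriform nucleus. Deep-layer neurons of the cortical plate are born before upper-layer neurons, and the subplate, which lies beneath them, holds some of the earliest neurons of the cortex. *Nr4a2* lies on the minus strand at chr2:56996842-57014331 and *Slc17a7* on the plus strand at chr7:44813305-44825644 (GRCm39, GENCODE M39).

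The control section was much shallower than the KO section. Control member cells held a median of 43 panel transcripts against 134 in the KO, and 50.9% of 108533 segmented control cells passed the minimum against 92.0% of 110004 KO cells. Blank barcodes, which code for no gene, made up 0.441% and 0.520% of the transcripts in member cells. *Dnmt1* was not among the 500 genes of the panel, so the deletion could not be checked by its target. No cell identifier was shared between the sections. With 1 section each, genotype cannot be told apart from section, run and depth, so differences between control and KO are given without a replicate check or a test. Intervals are exact Clopper-Pearson intervals for shares and exact Poisson intervals for counts, and cover counting error only.

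The genes of the rule describe the cells and support nothing further. In member cells of the pallial region (the developing cortex and its neighbours, outlined from other genes) the *Nr4a2* level was 75922 counts per 1000000 panel transcripts (CPM; interval 73904 to 77981) for control cells and 75042 CPM (interval 73995 to 76100) for KO cells, against 2596 and 2785 CPM in the other pallial cells. The *Slc17a7* level was 29627 CPM (interval 28372 to 30924) for control and 15939 CPM (interval 15459 to 16431) for KO member cells, against 3131 and 2818 CPM in the others. The marker sum per cell had a median of 3 in the control and 8 in the KO, and 642 control cells (35.2%) but 152 KO cells (8.34%) entered with a sum of exactly 2. Cells just inside the share limit (3% to under 4%) numbered 155 and 460, with a median sum of 2 and 4.5, and 58.1% and 78.9% of them lay in the pallial region. Cells just outside it (2% to under 3%) numbered 108 and 738, with a median sum of 2 and 3, and 51.9% and 60.8% were pallial. As a background, cells with at least 3 counts of the microglial genes *Csf1r*, *Cx3cr1* and *C1qa*, which should lack both markers, met the rule in 0.379% (0.0782 to 1.10) of 792 control cells and 0.366% (0.158 to 0.720) of 2186 KO cells, at median depths of 52 and 159 transcripts. Single counts were more frequent in them, with *Nr4a2* in 4.92% and 13.8% and *Slc17a7* in 0.631% and 3.89% of these cells, against 15.3% and 17.3% and 15.2% and 20.5% of all pallial cells.

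The label of cortical neurons held for most but not all of these cells. The pallial region was drawn where 5 pallial genes, *Tbr1* and *Eomes* among them, outweighed 15 genes taken as subpallial. The 15 include *Slc17a6*, a vesicular glutamate transporter gene that is also on the list of piriform and amygdala genes. The region held 1464 control member cells (80.2%, 78.3 to 82.0) and 1589 KO member cells (87.2%, 85.5 to 88.7). Deep-layer cells, chosen in the same way by *Fezf2*, *Mc4r* and *Ntsr1*, lay in it at 88.8% and 93.1%, and upper-layer or immature cells, chosen by *Unc5d* and *Sstr2*, at 79.1% and 91.9%. *Tbr1*, the transcription factor of early-born glutamatergic neurons, was counted in 85.0% of control and 97.1% of KO pallial member cells and in 66.3% and 81.6% of the other pallial cells, but it is 1 of the genes that drew the region and so is no independent check of the label. The 362 control and 234 KO member cells outside the region looked different and are described last.

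**Figure D1:**
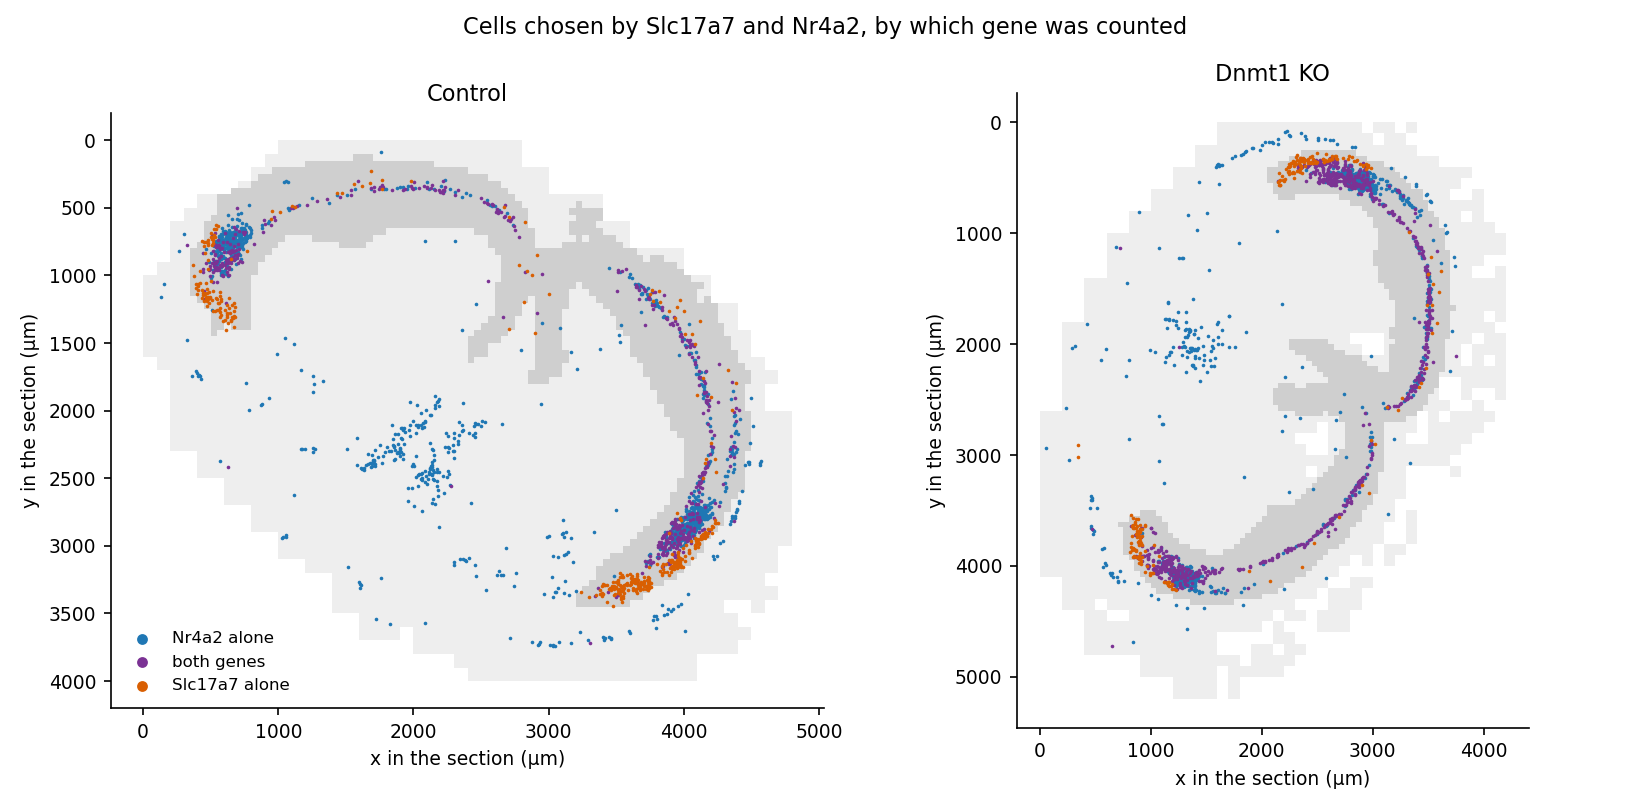
Position of every member cell in the control (left) and *Dnmt1* KO (right) section, x and y in µm from the section's corner, with the sections in their own orientation. Points are coloured by the marker counted in the cell (*Nr4a2* alone, both, *Slc17a7* alone), light grey is tissue and dark grey is the pallial region. In both sections dense groups sit at the 2 lateral ends of the region, a thin line of cells follows the cortex, and scattered *Nr4a2* cells lie outside it.

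Along the pallium, member cells were concentrated at its lateral end. Position in each hemisphere was the angle about the centre of its concave inner side, not a distance along the edge. It was scaled for each hemisphere from 0 at the lateral end to 1 at the medial end. The scale was split into a lateral (under 0.3), a dorsal (0.3 to under 0.8) and a medial zone. Of the pallial member cells 75.2% (72.9 to 77.4) lay in the lateral zone of the control and 73.5% (71.3 to 75.7) in that of the KO, but of all pallial cells over the minimum 32.2% and 24.3%. Deep-layer cells had the opposite layout, with 71.8% and 73.5% of them in the dorsal zone. Member cells made up 25.3% (24.0 to 26.6) of lateral and 4.67% (4.21 to 5.17) of dorsal control cells, and 10 of 1600 medial cells (0.625%). In the KO they made up 16.1% (15.3 to 17.0) of lateral and 2.14% (1.94 to 2.36) of dorsal cells, and 5 of 3155 medial cells (0.158%). The order lateral, dorsal, medial was the same in each of the 4 hemispheres.

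The share peaked a little inward of the lateral tip. The angle was cut into 10 equal bins. In the second bin member cells were 39.8% and 30.8% of cells in the control hemispheres and 27.8% and 28.6% in the KO hemispheres. In the third bin the hemispheres of a section differed, at 4.63% and 29.9% in the control and 2.94% and 14.0% in the KO. The inner border of the lateral group thus fell at different places on the angular scale, which was set for each hemisphere by itself. In the 5 dorsal bins the share stayed between 2.73% and 7.32% in the control hemispheres and between 1.20% and 2.71% in the KO hemispheres.

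**Figure D2:**
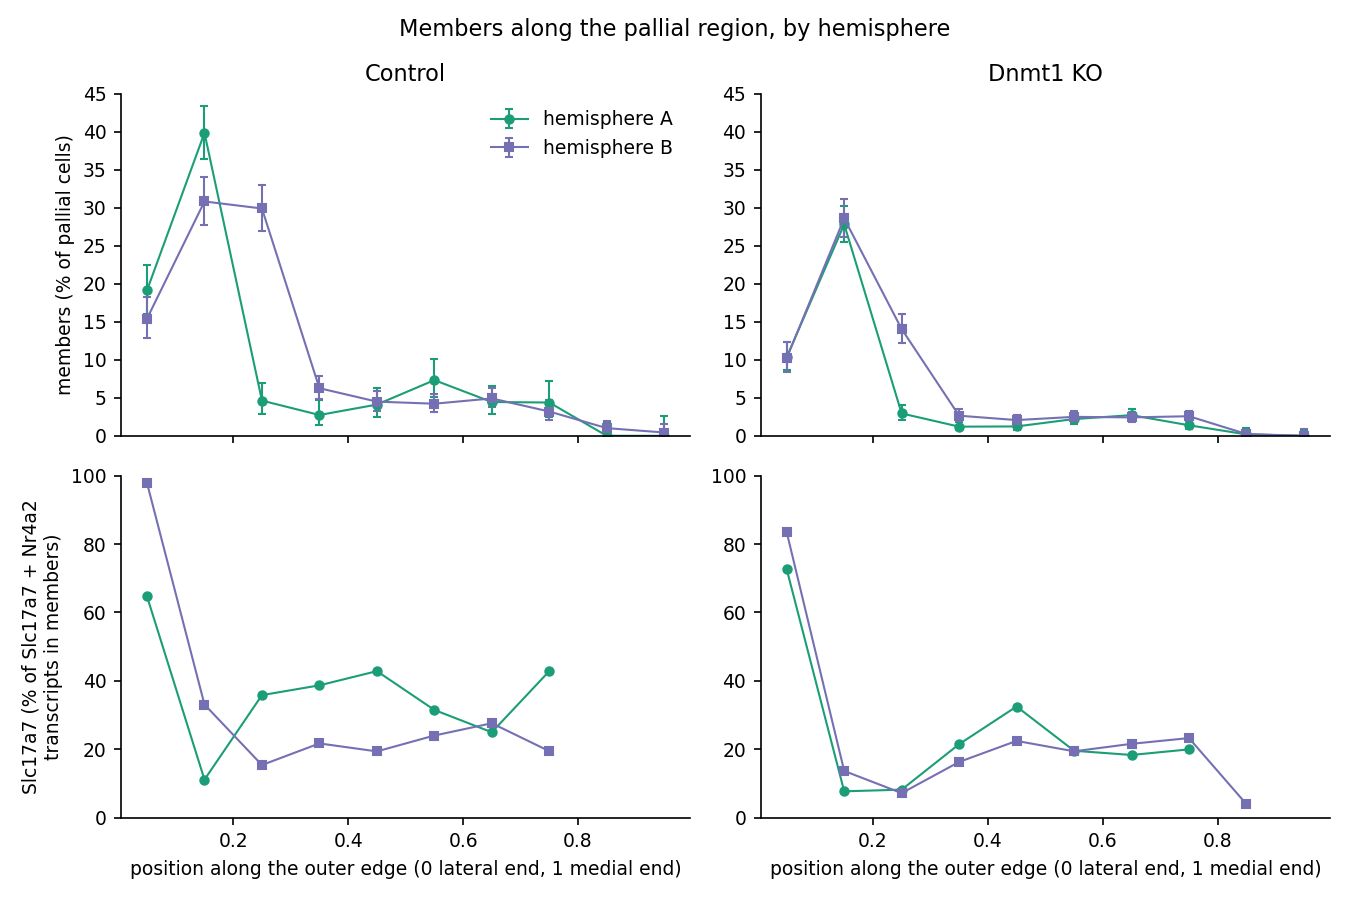
Member cells in 10 equal bins of angle along the pallial region (0 lateral end, 1 medial end, scaled for each hemisphere), 1 line per hemisphere. Top, member cells in % of pallial cells over the minimum with 95% Clopper-Pearson bars. Bottom, *Slc17a7* in % of the *Slc17a7* and *Nr4a2* transcripts of member cells, for bins with enough counts. The share peaks in the second bin, and *Slc17a7* is the larger part of the marker transcripts in the first bin of all 4 hemispheres.

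In the dorsal zone the median depth of member cells lay between those of the deep-layer and the upper-layer or immature cells. Relative depth ran from 0 at the outer edge of the cortex to 1 at its inner edge. Dorsal member cells had a median depth of 0.428 in the control (interquartile range 0.357 to 0.487) and 0.370 in the KO (0.335 to 0.400). Deep-layer cells of the same zone lay further out, at 0.310 and 0.240, and upper-layer or immature cells further in, at 0.826 and 0.777. A depth band from 0.3 to 0.5 was set where dorsal member cells were densest in these data. A larger share of member cells in it is thus partly built in. Of dorsal member cells 62.9% (57.6 to 67.9) fell in the band from 0.3 to 0.5 in the control and 79.6% (75.4 to 83.3) did so in the KO, against 29.9% and 21.1% of all dorsal cells. Deep-layer cells filled it with 50.1% of their number in the control and 23.7% in the KO, and upper-layer or immature cells with 0.662% and 1.80%.

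The spread of dorsal member cells in depth differed most between the control hemispheres. These hemispheres also differed in transcripts, with medians of 14 in A and 22 in B per segmented pallial cell, against 106 and 91 in the KO. They held 4421 and 9084 pallial cells over the minimum, against 13400 and 16413 in the KO. Whether this bears on the spread was not tested. The interquartile range of dorsal relative depth was 0.0667 and 0.0640 in the KO hemispheres, and 0.0776 and 0.142 in the control hemispheres. That of deep-layer cells was 0.146 and 0.145 in the KO and 0.137 and 0.126 in the control hemispheres, so that member cells were less spread than deep-layer cells in 3 hemispheres and more spread in control hemisphere B. In distance from the outer edge, the middle range ran from 146 to 200.0 µm in control hemisphere A and from 195 to 301 µm in control hemisphere B, and from 146 to 212 and 146 to 206 µm in the KO hemispheres. Lateral member cells were spread more widely, with interquartile ranges of 0.264 and 0.250 around medians of 0.410 and 0.431. Over the whole region the median was 0.418 for control and 0.396 for KO member cells.

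**Figure D3:**
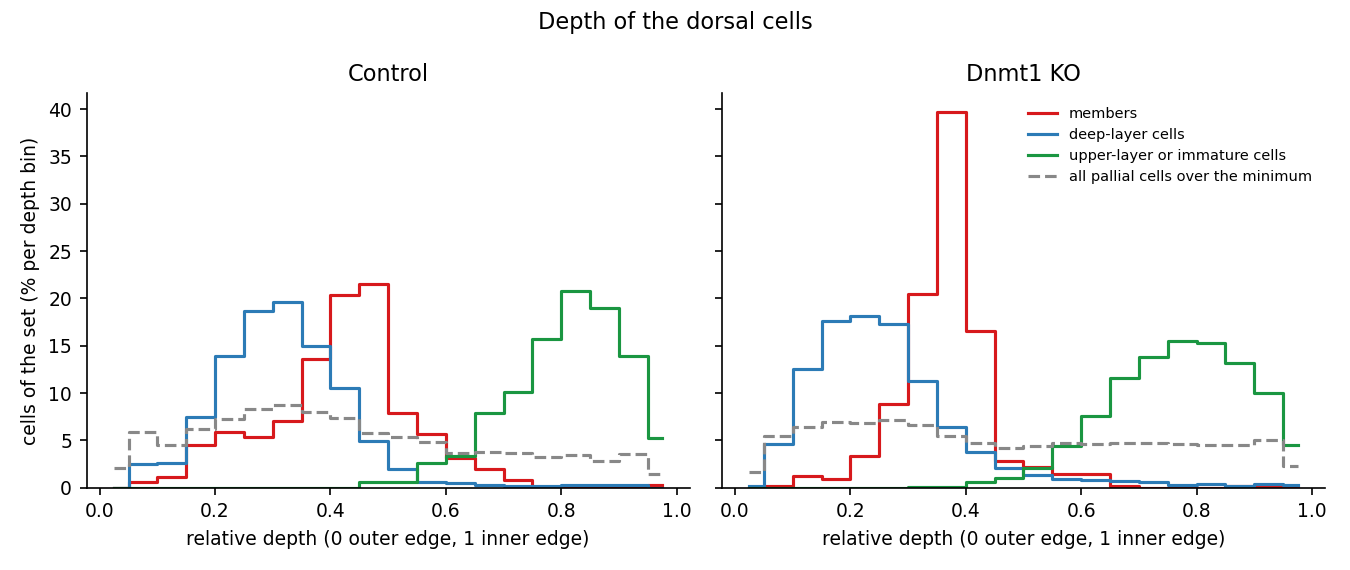
Relative depth of dorsal cells in 20 bins (0 outer edge, 1 inner edge), as % of each cell set per bin, for the control (left) and the *Dnmt1* KO (right). The member cells peak between the deep-layer cells, which lie nearer the outer edge, and the upper-layer or immature cells, and on this relative scale the peak is narrower in the KO section than in the control section with both hemispheres pooled.

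Member cells, like the other sets, lay near cells of their own kind. Of the 10 nearest cells over the minimum, 46.0% were member cells around a control member cell and 39.9% around a KO member cell, against 6.65% and 3.43% around other pallial cells. Deep-layer cells had 53.0% and 64.0% of their own kind among the 10 nearest, and upper-layer or immature cells 25.8% and 53.0%. The share of member cells among the neighbours was 54.2% and 47.9% around lateral member cells, and 21.6% and 18.0% around dorsal ones. Only 0.383% and 0.359% of the neighbours of member cells were upper-layer or immature cells, against 5.66% and 16.4% around other pallial cells.

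Both stains were weaker in dorsal member cells than in the other dorsal cells taken over the full depth of the cortex, which include progenitors. The DAPI signal per cell volume, in the instrument's units, had a median in dorsal member cells that was 0.665 times that of other dorsal cells in the control and 0.654 times in the KO. For PolyT the ratio was 0.790 and 0.741. In the lateral zone the DAPI ratio was 0.994 and 0.954 and the PolyT ratio 1.03 and 0.990. Member cells held 1.39 and 1.42 times the median transcripts of other pallial cells, at 1.04 and 1.12 times their volume. Within zones the transcript ratio was 1.33 and 1.15 laterally and 1.40 and 1.14 dorsally. The volume ratio was 0.968 and 0.898 laterally and 1.09 and 0.998 dorsally, so the larger KO volume did not hold within zones. The number of transcripts entered the rule, so that part of the difference is no finding.

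Which of the markers a cell carried depended on where it lay. In the control 660 pallial member cells (45.1%) held *Nr4a2* alone, 361 (24.7%) *Slc17a7* alone and 443 (30.3%) both. In the KO the numbers were 655 (41.2%), 206 (13.0%) and 728 (45.8%). Over the whole pallial region, the order of the sections changed for *Nr4a2* alone and for both when depth was evened out, and not for *Slc17a7* alone. A cell counts here as carrying a marker from 1 count on, and the background of single counts given above was higher in the deeper KO section. When each cell was thinned at random to 25 transcripts, leaving out the 23.8% of control and 1.78% of KO pallial cells that were shallower, and chosen again, the share with both was 24.3% in the control and 18.2% in the KO. *Nr4a2* alone was then at 54.3% and 67.1%, and *Slc17a7* alone at 21.4% and 14.7%.

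Cells with *Slc17a7* alone gathered at the lateral tip near the outer edge. Of control cells of this kind 48.2% (42.9 to 53.5) lay in the first bin, and of KO cells 60.7% (53.7 to 67.4), against 2.73% (1.62 to 4.28) and 1.07% (0.431 to 2.19) of the cells with *Nr4a2* alone. Their median depth in the lateral zone was 0.226 and 0.204, and that of lateral cells with *Nr4a2* alone was 0.451 and 0.443. Dorsal member cells carried both markers more often than lateral ones, at 47.0% in the control and 59.9% in the KO, against 24.9% and 40.9% of lateral member cells. In thinned cells the order of dorsal and lateral held, at 38.3% against 20.9% in the control and 36.3% against 13.8% in the KO.

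The 2 kinds of cell differed in many other genes. The comparison was not matched for position, in which the 2 kinds also differed, so position and marker cannot be told apart in it. Of 135 genes with at least 50 counts in each section, 14 (10.4%) were at least 2-fold higher and 31 (23.0%) at least 2-fold lower in both sections in cells with *Nr4a2* alone than in cells with *Slc17a7* alone. *Sulf2*, a heparan sulfate 6-O-endosulfatase, stood at 17719 against 2711 CPM in the control and 10813 against 1260 in the KO (log2 2.71 and 3.10). *Ptpru*, a receptor tyrosine phosphatase, was higher by 2.14 and 1.85, *Foxp1*, a forkhead transcription factor, by 2.12 and 1.82, and *Cbln1*, a secreted synaptic organizer, by 1.68 and 2.07.

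Other genes were higher in the cells with *Slc17a7* alone. *Prox1*, a homeobox gene known from dentate granule cells, stood at 399 CPM in cells with *Nr4a2* alone and 7358 in cells with *Slc17a7* alone in the control, and at 227 and 4084 in the KO. *Ptk2b*, a calcium-dependent tyrosine kinase, was lower in the *Nr4a2* cells by 4.67 and 3.99 on the log2 scale, *Parm1* by 4.23 and 4.00, *Baiap3*, which acts in dense-core vesicle traffic, by 3.74 and 4.94, and *Camk2d*, a subunit of the kinase CaMKII, by 3.32 and 4.12. *Tbr1* differed little, with log2 differences of 0.47 and 0.55.

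Compared with all other pallial cells, member cells had more *Grin3a* and *C1ql3* transcripts and fewer progenitor transcripts. Of 393 genes outside the rule with at least 50 counts, 43 (10.9%) were at least 2-fold higher in both sections and 49 (12.5%) at least 2-fold lower. The highest was *Grin3a*, a modulatory subunit of the NMDA receptor, at 18860 CPM against 2634 in the control and 15832 against 1934 in the KO (log2 2.84 and 3.03), with log2 ratios of 3.04 and 2.71 in the control and 3.12 and 2.94 in the KO hemispheres.

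The secreted synaptic protein gene *C1ql3* followed at 2080 against 333 CPM and 2262 against 370. *Olfm3*, an olfactomedin, had log2 ratios of 2.78 and 2.45, and *Pde1a*, a calmodulin-dependent phosphodiesterase, of 2.34 and 2.74. The calcium sensor gene *Syt10* (2.25 and 2.36), the adhesion receptor gene *Adgra1* (2.22 and 2.22) and the relaxin receptor gene *Rxfp1* (1.98 and 2.13) were also among the highest 10, with *Ptk2b* (2.14 and 1.82) and *Brinp3* (2.08 and 1.82).

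By gene group, 3 of the 6 acetylcholine receptor genes tested were at least 2-fold higher in both sections, against 10.9% of all genes, and all 3 are muscarinic: *Chrm1* with log2 ratios of 1.83 and 1.75, *Chrm2* with 1.11 and 1.34, and *Chrm3* with 1.13 and 1.17. Against other cells of the same zone this did not hold. None of 5 such genes was 2-fold higher laterally and none of 4 dorsally, where *Chrm2* was lower on 1 control and 2 KO counts. Of 9 glutamate receptor genes 1 passed, *Grin3a*, a share near that of all genes. Their median was 0.93 and 0.89 against all other pallial cells (0.036 and 0.13 over all genes tested), but -0.011 and 0.087 against other lateral cells and 0.022 and 0.33 against other dorsal cells. Of 4 adrenergic receptor genes *Adra1b* passed, with a list median of 0.97 and 0.38. None of 7 subplate and layer 6b genes (medians 0.26 and 0.41) and none of 5 claustrum, insula and endopiriform genes (0.20 and 0.34) was 2-fold higher or lower in both sections over the pallium as a whole.

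The lowest genes included progenitor, connective tissue and marginal zone genes. *Eomes*, the transcription factor of intermediate progenitors, stood at 70.7 CPM against 741 in the control and 226 against 2211 in the KO. *Ccnd2*, the cyclin of cortical progenitors, stood at 22638 against 132446 and 10019 against 62227. *Dcn*, a connective tissue proteoglycan, was lower by 3.37 and 4.21 on the log2 scale, *Ndnf*, a marginal zone gene, by 2.67 and 3.59, and *Nrp1*, a semaphorin and VEGF co-receptor, by 2.45 and 3.22. Against deep-layer cells alone *Nrp1* was still lower, by 2.24 and 2.60, while *Ccnd2* was lower by 0.54 and 0.64, *Dcn* had log2 ratios of 0.055 and -0.78 and *Ndnf* of 0.22 and 0.72. Of the lists, 7 of 7 progenitor genes, 3 of 3 microglial, 5 of 7 vascular, 3 of 4 Cajal-Retzius and 3 of 10 GABAergic genes were at least 2-fold lower in both sections, against 12.5% of all genes tested, and none was higher. The rule removes cells with 2 or more *Gad1* and *Gad2* counts from the member cells and leaves them among the others, so lower GABAergic genes are partly built in, here and within zones. The 7 progenitor genes summed to 25298 CPM in member cells against 145231 in the control and 12759 against 84911 in the KO. Most of each sum was *Ccnd2*, at the levels given above.

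Lateral and dorsal member cells were unlike each other. Of 164 genes, 53 (32.3%) were at least 2-fold higher in lateral member cells in both sections and 17 (10.4%) at least 2-fold lower. *Nrp2*, a semaphorin receptor, had 604 lateral counts and 1 dorsal count in the control (log2 7.50, 5.01 to 12.8) and 2143 against 8 in the KO (5.98). *Grin3a* stood at 24388 CPM laterally and 803 dorsally in the control, and at 19427 and 665 in the KO. *Spon1*, an extracellular matrix protein of axon guidance, had 223 against 2 and 560 against 7 counts, *Egln3*, a prolyl hydroxylase, 115 against 1 and 498 against 1, and *Il1rapl2*, of the interleukin-1 receptor family, 127 against 2 and 460 against 3. The 3 muscarinic receptors were lateral as well, with *Chrm1* higher by 2.82 and 2.99, and of 5 layer 6 corticothalamic genes *Tox*, *Syt6* and *Wnt7b* were lower.

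For these genes the zone itself differed. In the other pallial cells the lateral over dorsal log2 ratio was 3.08 and 3.12 for *Nrp2*, 4.20 and 3.97 for *Grin3a*, 2.66 and 2.74 for *Spon1*, 1.48 and 1.16 for *Egln3*, and 4.85 and 5.08 for *Il1rapl2*.

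Among the genes that were higher in dorsal member cells, *Nxph4*, *Stac2* and *Grm3* had smaller or opposite ratios in the other cells. *Nxph4*, a neurexophilin known from subplate and layer 6b neurons, stood at 12912 CPM dorsally and 1349 laterally in the control, and at 12698 and 1213 in the KO (lateral over dorsal log2 -3.26 and -3.39, against -0.73 and -0.95 in the other cells). *Stac2*, an adaptor of voltage-gated calcium channels, stood at 8958 and 850 CPM in the control and 9715 and 763 in the KO (-3.40 and -3.67, others -0.90 and -0.54). *Grm3*, a metabotropic glutamate receptor, stood at 41206 and 8850 CPM in the control and 39605 and 5599 in the KO. Its log2 ratio was -2.22 and -2.82 in member cells and 0.40 and 0.42 in the other cells. *Ngfr*, the p75 neurotrophin receptor (-3.30 and -2.93), and *Cabp7*, a calcium-binding protein (-2.68 and -2.78), went the same way. *Nfix*, a nuclear factor I gene, did so in the other cells too, at -2.65 and -3.21 in member cells and -2.56 and -2.48 in the others.

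Member cells were next set against the other cells of their own zone. In the dorsal zone 30 of 277 genes (10.8%) were at least 2-fold higher in both sections and 63 (22.7%) at least 2-fold lower. *Adra1b*, an alpha-1 adrenergic receptor, led with 2348 CPM against 305 in the control and 2660 against 264 in the KO. *Vwc2*, a secreted BMP antagonist, stood at 2471 against 366 and 1471 against 146 CPM, and *Prss12*, the synaptic protease neurotrypsin, at 1977 against 373 and 2943 against 278. *Pde1a* was higher by 2.47 and 3.12, *Grm3* by 2.28 and 2.90 and *Nxph4* by 1.89 and 2.35 (log2), and *Stac2* stood at 8958 against 2232 and 9715 against 1577 CPM. The serotonin receptor genes *Htr2a* (1.20 and 1.96) and *Htr1f* (1.32 and 2.21, with 7 control counts in member cells) and the beta-1 adrenergic receptor gene *Adrb1* (1.39 and 1.21) also passed 2-fold in both sections. Of the lists, all 6 progenitor genes tested were at least 2-fold lower, as were 6 of 10 GABAergic genes, which the *Gad1* and *Gad2* limit affects. Of 3 subplate and layer 6b genes 1, *Nxph4*, was higher. The medians of these 3 were 1.16 and 0.69, and the lowest ratios 0.0046 in the control and -2.67 in the KO.

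In the lateral zone 9 of 290 genes (3.10%) were at least 2-fold higher in both sections and 44 (15.2%) at least 2-fold lower. The 9 were *Grin3a* (1.57 and 1.75), *Pde1a* (1.52 and 2.01), *C1ql3* (1.53 and 1.43), *Cbln1* (1.32 and 1.35), *Olfm3* (1.60 and 1.25), *Rxfp1* (1.46 and 1.24), *Adgra1* (1.23 and 1.42), *Ptk2b* (1.58 and 1.09) and *Syt10* (1.17 and 1.03). *Pde1a* passed in both zones. *Adra1b* was higher by 0.62 and 0.75 laterally, below the 2-fold limit. *Vwc2* lay on the other side there, with log2 ratios of -0.58 and -0.85, and *Nrp2* was higher laterally by 0.91 and 0.65 but lower dorsally, with -3.50 and -2.21. The difference between zones was not tested.

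**Figure D4:**
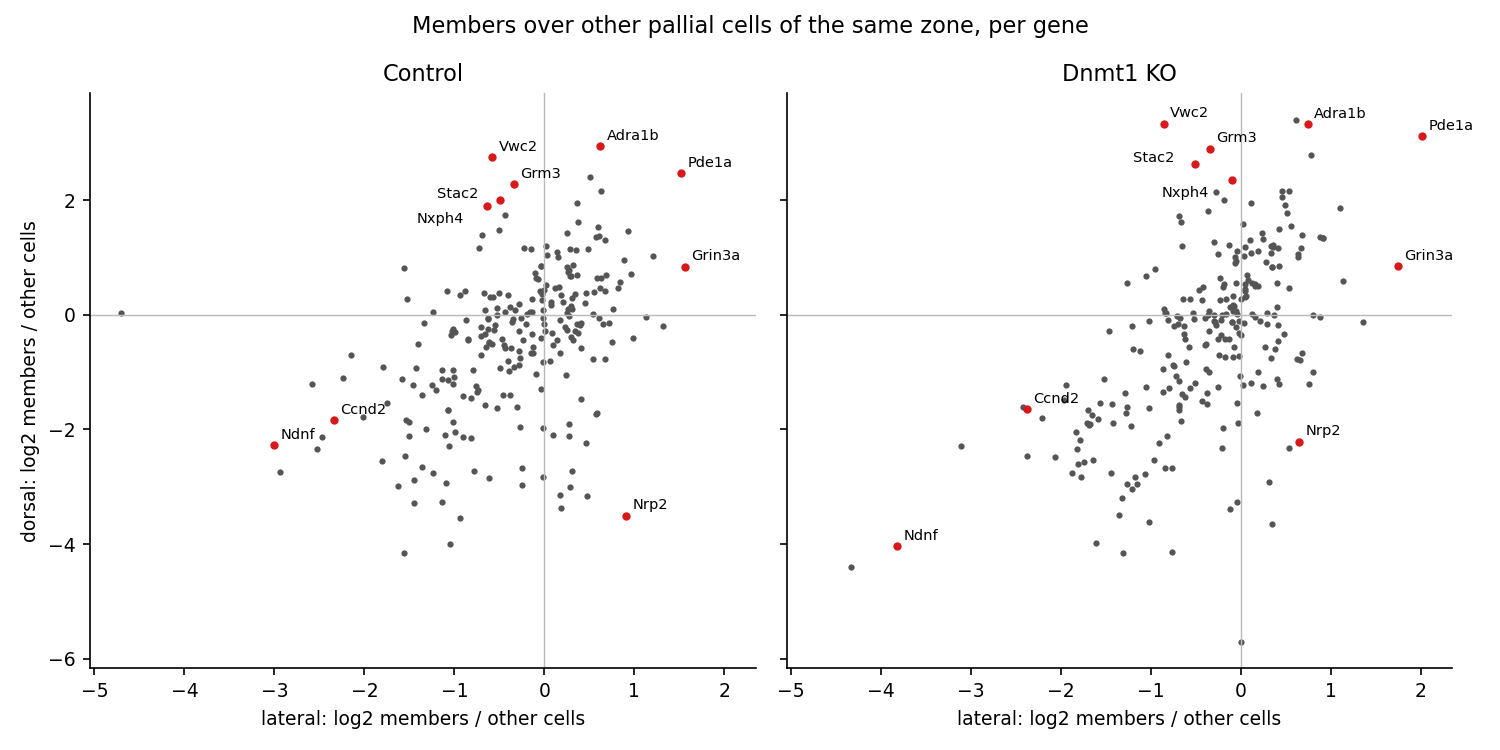
Log2 ratio of member cells over other pallial cells of the same zone, lateral on the x axis and dorsal on the y axis, for each gene tested in both zones, in the control (left) and the *Dnmt1* KO (right). Named genes are in red. *Pde1a* is high in both zones, *Grin3a* mainly laterally, *Vwc2*, *Grm3*, *Stac2* and *Nxph4* dorsally, and *Nrp2* lies high laterally and low dorsally.

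Between the sections, the share of member cells among pallial cells over the minimum was lower in the KO, by a size that varied with how depth was treated. Of 13505 control cells 10.8% (10.3 to 11.4) were member cells, against 5.33% (5.08 to 5.59) of 29813 KO cells. The log2 ratio was -1.02, and the shares by hemisphere were 12.5% and 10.0% in the control and 5.11% and 5.51% in the KO hemispheres. With KO counts thinned to the mean control depth the KO share was 7.28%. Per 100 segmented pallial cells, whatever their transcripts, it was 4.94 in the control and 5.12 in the KO, and 3.89 in the thinned KO. After that thinning the lateral share was 25.3% in the control and 18.9% in the KO, the dorsal share 4.67% and 2.05%, and the medial share 0.625% and 0.649%. The share was thus lower in the KO per cell over the minimum and not per segmented cell at full depth.

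In gene levels, 8 of 165 genes (4.85%) were at least 2-fold higher in KO than in control member cells and 14 (8.48%) at least 2-fold lower, with a median log2 ratio of -0.043. The counts varied with the treatment of depth. They were 2 and 0 in cells thinned to 25 transcripts (60 genes tested), 9 and 5 with the KO thinned to control depth and 4 and 14 with a minimum of 50 transcripts. Per cell volume the median gene rose by 2.22 (log2), and relative to it 8 genes were higher and 13 lower. *Cd24a*, a surface protein of immature neurons, stood at 7074 CPM in the control and 30876 in the KO (log2 2.13), and at 11218 and 48313 CPM in the other pallial cells (2.11). *Epha3*, an ephrin receptor, stood at 3014 and 9280 CPM (1.62), and its log2 ratio in the others was 1.76. *Luzp2* had log2 ratios of 1.35 in member cells and 0.81 in the others, *Rnd3*, a small GTPase of the cytoskeleton, of 1.22 and 0.83, and *Opcml*, a cell adhesion molecule, of 1.15 and 1.03. *Kcnk2*, *Nkain3* and *Gpr161* completed the higher genes, at 1.12, 1.07 and 1.03. Between single hemispheres the weakest ratio was 0.59 for *Luzp2* and 0.84 for *Rnd3*.

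Of the lower genes, *Ptprm*, a receptor tyrosine phosphatase of cell adhesion, stood at 3693 and 1163 CPM (log2 -1.67, -1.91 to -1.42, with -1.02 in the others). *Adra2a*, an alpha-2 adrenergic receptor, had log2 ratios of -1.57 in member cells and -1.50 in the others, *Igfbp5*, an IGF binding protein, of -1.56 and -1.13, *Pcdh8*, a protocadherin, of -1.38 and -1.16, and *Mrc1*, the mannose receptor of macrophages, of -1.33 and -1.42. Between single hemispheres the weakest ratio was -0.65 for *Igfbp5*, -0.89 for *Pcdh8* and -0.94 for *Mrc1*. For *Sst*, the somatostatin gene, the ratio was -1.12 in member cells and -0.24 in the others, and for *Prox1* -1.12 and -0.20. *Top2a*, a topoisomerase of dividing cells, was at -0.12 in member cells and 1.13 in the others. *Ccnd2*, of the same progenitor list, went the other way. It was at least 2-fold lower in KO member cells and also lower in the other KO cells, at the levels given above. The median of the 3 progenitor genes tested was -0.30 in member cells and 0.025 in the others.

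*Sst* and *Prox1* belong to the GABAergic list, of which 3 of 6 genes tested were at least 2-fold lower, against 8.48% of all genes tested. The rule itself bears on this count, since it drops cells with 2 or more *Gad1* and *Gad2* counts at any depth while the sections differ in depth, and nothing is read from it. *Gad1* can have at most 1 count per member cell, and was counted in 9.22% of control and 12.8% of KO member cells. The 10 GABAergic genes summed to 13116 and 7110 CPM in member cells and to 17222 and 17647 in the others. The mix of member cells also differed between the sections. Cells with *Slc17a7* alone were 24.7% of control and 13.0% of KO pallial member cells. *Prox1* and *Adra2a* were at least 2-fold higher in them than in cells with *Nr4a2* alone, in both sections. Whether this mix bears on the KO over control ratios was not tested.

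**Figure D5:**
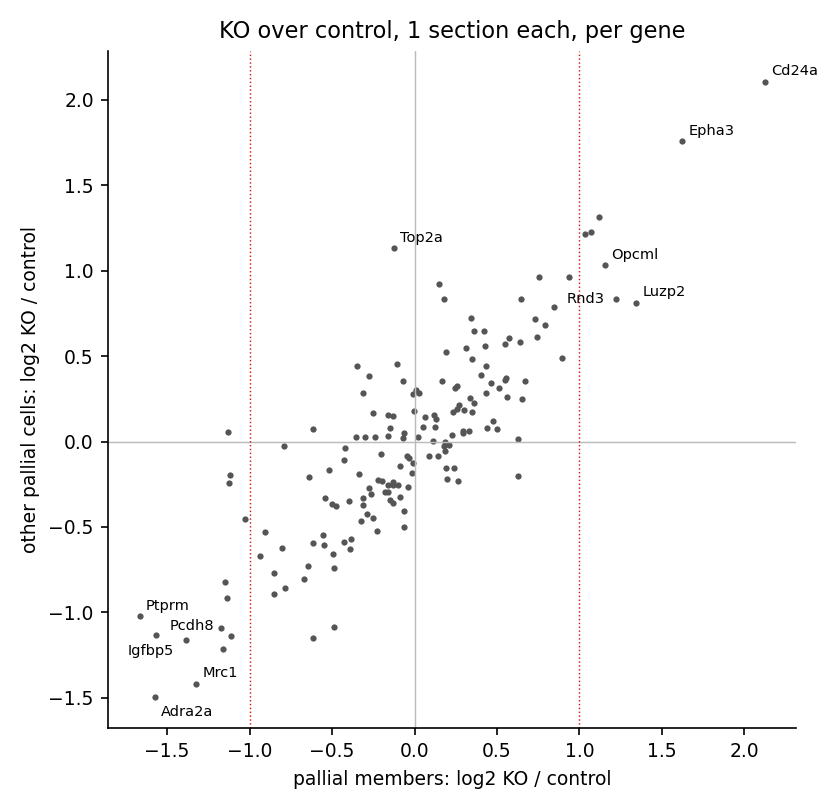
Log2 ratio KO over control for each of 165 genes, in pallial member cells (x axis) and in other pallial cells (y axis), 1 section per group. Dotted lines mark 2-fold in member cells. *Cd24a* and *Epha3* are high in both sets of cells, and *Top2a* is at -0.12 in member cells and 1.13 in the others. *Ccnd2*, of the same progenitor list and not labelled, is lower in the KO in both sets.

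The member cells outside the pallial region carried *Nr4a2* with little *Slc17a7* and *Tbr1*. *Nr4a2* stood at 59791 CPM in the control and 46111 in the KO and *Slc17a7* at 2801 and 1652. *Tbr1* stood at 3166 and 3113 CPM, against 49718 and 52731 in pallial member cells, but *Tbr1* also helped to draw the region. Other pallial lists varied. The layer 6 corticothalamic list, which holds *Tbr1*, summed to 8463 and 7032 CPM, against 69498 and 76825 in pallial member cells. The claustrum, insula and endopiriform list stood at 9437 and 11259 against 32301 and 43822. Upper-layer genes stood at 22041 and 24362 against 43918 and 34852, and subplate and layer 6b genes at 2435 and 5418 against 5476 and 5109. Against other cells outside the region 25 of 488 genes (5.12%) were at least 2-fold higher in both sections and 55 (11.3%) at least 2-fold lower. *Creb3l1*, a transcription factor known from bone-forming cells, stood at 41220 CPM against 8462 in the control and 57947 against 6789 in the KO, and at 226 and 306 CPM in pallial member cells. *Rerg* was higher by 2.41 and 3.10, *Frzb*, a secreted Wnt antagonist, by 2.09 and 2.53, and *Glp1r*, the GLP-1 receptor, by 1.97 and 2.49 (log2, with 8 control counts of *Glp1r* and 13 of *Frzb*). The rule thus also took in cells with few *Tbr1* transcripts, in sections that hold tissue of the whole head.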

How the data were processed

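MERFISH used a 500-gene panel with 50 blank barcodes. Decoding and cell segmentation were run on a Vizgen MERSCOPE. For each cell the authors deposited unnormalized counts of decoded molecules per gene, the volume, and the summed signal of the PolyT and DAPI stains in instrument units. The genome build of the panel is not given in the sources used here. Members, gene lists and comparisons were chosen with earlier results of these data known, and the region's genes and grid (25 µm bins, smoothing SD 50 µm), the zones, the depth bins and the dorsal depth band were chosen after looking at the sections.

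Counts were summed over cells and scaled per 1000000 panel transcripts (CPM), and a gene was called at 2-fold, with at least 50 counts over the cells compared in each section. Where sets of cells of the same section were compared, the limit applied to both sets together. A gene could then pass on the counts of the larger set alone, which bears on the numbers of higher and lower genes. A fold against 0 counts used a floor of 3 counts. Named genes were the 9 of the rule, the 10 highest and 5 lowest over other pallial cells, the 5 highest and lowest between sections and between cells with 1 marker alone, and list members. The highest and lowest genes of the zone and outside-region comparisons, and all other named genes, were added after their values were seen. Some genes the rule names are not reported here. No test fits 1 section per group. The software was Python 3.11.15 with numpy 2.4.6, pandas 2.3.3, scipy 1.17.1 and matplotlib 3.10.9. Ratios and intervals were checked on simulated counts. These were independent Poisson counts, the model that the intervals of counts assume. The check thus covers the calculation and not variation between cells, hemispheres or animals. Alternatives are in the closing section. Denominators of all segmented cells and volume scaling relative to the median gene were added after seeing the data.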

Additional observations from a re-analysis of the deposited data

Results flagged for a closer look

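*Vwc2* and *Nrp2* went opposite ways in the zones. Dorsal member cells had more *Vwc2* than other dorsal cells (log2 2.76 in the weaker section) and lateral ones had less (-0.58), while *Nrp2* was lower dorsally (-2.21 in the weaker section) and higher laterally (0.65). Both held in both sections, and the difference between zones was not tested. Dorsal *Nrp2* rests on 1 control and 8 KO counts.

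Outside the pallial region, which the main comparisons do not use, 362 control and 234 KO cells met the rule, a share of 0.868% (0.781 to 0.961) and 0.328% (0.287 to 0.372) of the cells there.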

How the results depend on the processing

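Each group is 1 section, so no alternative replaces a replicate, and depth limits every comparison between sections. The KO over control log2 ratio of the member share in whole sections (main -0.88) was -1.35 with a minimum of 50 transcripts, -0.49 with 10, -0.40 with the KO thinned to control depth, -1.32 with a marker share of 5% and -0.032 with a marker sum of 4. In the pallial region (-1.02) these were -1.80, -0.52, -0.57, -1.46 and -0.31, with -1.28 in cells thinned to 25 transcripts, -1.14 without any *Gad1* or *Gad2* count, -1.29 to -0.87 over the 4 hemisphere pairings, 0.052 per segmented cell and -0.35 per segmented cell with the KO thinned. The difference in median depth (KO minus control, -0.021) was -0.00087 thinned to 25, -0.0022 with the KO thinned, -0.00042 at a marker share of 5%, -0.037 at a marker sum of 4, -0.0075 for all decoded *Nr4a2* molecules, and in imaging plane 0 -0.0080 for *Slc17a7* and 0.0029 for *Nr4a2*. The KO share in the pallial region (87.2%) was 81.4% and 79.6% under the 2 thinnings, and control neighbours (46.0%) were 53.6% with a minimum of 50.

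Some differences in marker splits turned with the treatment of depth, which also changed the cells chosen. *Nr4a2* alone (KO minus control, -3.86 percentage points) was 8.14 with a minimum of 50, 12.8 thinned to 25, 8.40 with the KO thinned and -7.49 in the lowest hemisphere pairing, and both markers (15.6) was 13.3 with a minimum of 50 and -6.14 and -4.89 under the thinnings. The *Slc17a7* percent of marker transcripts (-10.6) stayed negative, at -18.7, -6.77 and -4.87 under the same 3 settings, -15.0 to -3.70 over hemisphere pairings, -3.27 in all molecules and -2.28 in plane 0.

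Genes higher in member cells (43) numbered 26 thinned to 25 and 81 against upper-layer or immature cells. Genes lower (49) numbered 127 against all other cells, 14 against deep-layer and 31 against upper-layer or immature cells. Genes higher in the KO (8) numbered 4 with a minimum of 50, 2 thinned to 25 (60 genes tested), 4 at a marker share of 5%, 2 in the lowest hemisphere pairing, 3 with 200 counts per gene and 160 per cell volume. Genes lower (14) numbered 0 thinned to 25, 5 with the KO thinned, 7 at a marker sum of 4, 5 in the lowest pairing, 22 with 20 counts, 6 with 200 and 0 per cell volume, where the median gene moved by 2.22 (log2). Of 144 values of named genes under alternatives 129 stayed past 2-fold. *Ndnf* was at 0.22 and 0.17 against deep-layer and upper-layer cells and *Dcn* at 0.24 against the latter, and per cell volume *Ptprm*, *Adra2a*, *Igfbp5*, *Pcdh8* and *Mrc1* were at 0.60, 0.69, 0.70, 0.88 and 0.94. That shift of all genes fixes these signs and counts, which say nothing of single genes: relative to the median gene the same 5 were at -1.62, -1.53, -1.52, -1.34 and -1.28, with 8 genes higher and 13 lower. Apart from the thinnings, volumes, counts and other comparison cells, whose construction changes the genes or scale, the cause was not tested.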
